A study of Mus musculus with 8 samples.

Results

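The 45 genes described here encode the machinery that copies DNA and makes its building blocks: the MCM helicase, the factors that license and fire origins, the sliding clamp and its loader, the single-strand binding protein, the DNA polymerases and primase, the enzymes that join Okazaki fragments, the enzymes of deoxynucleotide synthesis, and chromatin assembly and fork protection factors. They were chosen by name from knowledge of the pathway, but with earlier results of these data known. Each was read from the brightest of its probes, and all 45 were among the 16309 genes tested. The arrays profiled mouse fetal liver cells of the C57Bl/6 strain that were Ebf1-/-, enriched for c-Kit+ cells, and plated on OP9 feeder cells, a stromal line, with 5 ng/ml IL-7, 10 ng/ml Flt3L and 10 ng/ml SCF. Retroviruses carrying GFP delivered EBF1 with the H240A substitution (Ebf1-H240A, n = 3 arrays), wild-type EBF1 (Ebf1wt, n = 3) or no EBF1 (Empty, n = 2), and GFP+ cells were sorted 36 h after transduction. All groups lack endogenous Ebf1, so every EBF1 effect is that of a protein expressed from a retroviral vector in mutant cells. Whether replicates are separate cultures or animals is not in the labels, and the p-values reflect only how far these arrays differ from each other, which could be technical spread.

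In eukaryotic cells the origin recognition complex, CDC6 and CDT1 load the MCM2-7 ring onto origins before S phase, and CDC45 and the GINS complex then turn it into the active helicase. Polymerase alpha with primase starts each new strand, and polymerases delta and epsilon extend it on the PCNA clamp. Many of these genes are transcribed in late G1 and S phase under E2F factors, so their RNA is often read as a measure of cycling. EBF1 is the transcription factor that commits lymphoid progenitors to the B lineage, and fetal liver is a site where B cells form before birth.

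Of the 45 genes, 40 were lower with Ebf1-H240A than with Empty (limma, p under 0.05 after Benjamini-Hochberg adjustment over the whole table), against 23% of all genes called lower in that comparison. None rose (0, against 21.6% of all genes called higher; at an unadjusted p under 0.05 the counts were 41 lower and 0 higher). Relative to Empty, wild-type EBF1 gave 30 members lower, against 21.3% of all genes, and 1 higher (Tk1), against 17.2%. Without Empty 1, 19 members were called lower with Ebf1wt, and the calls of Gins1, Pcna, Rfc3, Rfc4, Prim1, Prim2, Pold3, Fen1, Lig1, Dut, Chaf1a and Tk1 were lost. Between the proteins, 11 members were lower with Ebf1-H240A than with Ebf1wt, against 2.72% of all genes, and 0 were higher, against 3.64% (32 lower and 0 higher at an unadjusted p under 0.05).

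The median log2 difference of the members was -0.65 for Ebf1-H240A against Empty, where that of all genes was near 0, with single members from -1.09 (Cdt1) to 0.15 (Chaf1b). It was -0.38 for Ebf1wt against Empty, beside -0.04 for all genes, and -0.26 for Ebf1-H240A against Ebf1wt, beside 0.02 for all genes. Most changes were thus moderate: 2 members (Cdt1 and Pole2) fell more than 2-fold with Ebf1-H240A, and 0 did so with Ebf1wt. The comparisons with Empty share the same 2 Empty arrays, and both comparisons of Ebf1-H240A share its 3 arrays, so they are not independent of each other. In RNA from a whole sorted population, fewer cycling cells and less of these RNAs per cell cannot be told apart.

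**Figure D1:**
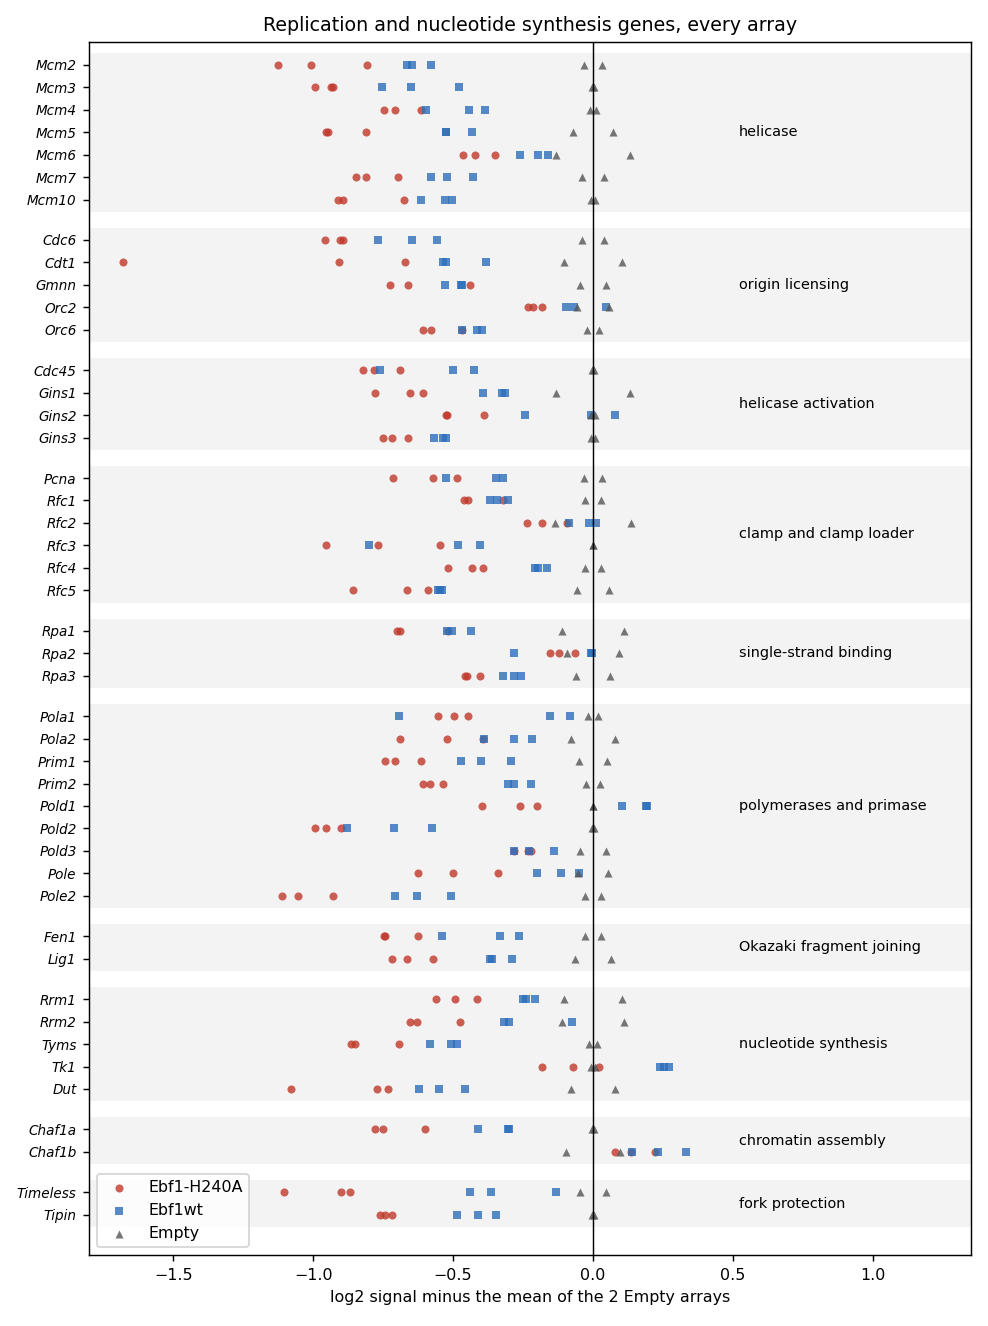
Log2 signal of each of the 45 genes on each array, as the difference from the mean of the 2 Empty arrays, with genes grouped by role; circles are Ebf1-H240A arrays, squares Ebf1wt arrays and triangles Empty arrays. The Ebf1-H240A circles lie left of the Empty triangles for 41 genes, and the median gene lies at -0.65 for Ebf1-H240A against -0.38 for Ebf1wt.

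The shift was present on each array. Set against the mean of the Empty arrays, the median member lay at -0.66, -0.71 and -0.58 on Ebf1-H240A arrays 1 to 3, at -0.32, -0.40 and -0.47 on Ebf1wt arrays 1 to 3, and at 0.03 and -0.03 on the Empty arrays. These 3 groups did not overlap, and replicate arrays differed with an SD of 0.066. In 28 members every Ebf1-H240A array lay below every Ebf1wt array and every Ebf1wt array below both Empty arrays, an order found in 6.17% of all genes. The groups of Ebf1-H240A and Empty arrays did not overlap for 41 members, all lower (34% of all genes), and those of Ebf1wt and Empty did not for 36 lower (34.8%) and 3 higher members (26.5%). By mean alone, 44 members were lower with Ebf1-H240A than with Empty (50.3% of all genes) and 42 with Ebf1wt (54%).

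The arrays lay on 2 slides, each with all groups. The median member difference of Ebf1-H240A from Empty was -0.74 within slide 1 and -0.55 within slide 2, with 44 and 41 members lower in mean. For Ebf1wt against Empty it was -0.41 and -0.36, with 41 and 40 members lower in mean. Between Ebf1-H240A and Ebf1wt it was -0.31 and -0.19, with 45 and 41 members lower in mean. With the slide as a block in the fit, the medians were -0.65, -0.37 and -0.26, and 39, 28 and 3 members were called lower in these comparisons.

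The array probes of the members are spread over 16 chromosomes of mm9, with at most 7 members on any of them. Promoters were available for 37 of the 45 genes (RefSeq, GRCm38.p6, 250 bases before to 50 after the start). Of these genes, 13 (35.1%) held at least 1 E2F word (TTTCCCGC, TTTCGCGC, TTTGCCGC or TTTGGCGC, either strand, overlaps allowed), against 2.61% of 27025 genes and 4.36% of the 10888 tested genes with a promoter entry. CCAAT, the word bound by NF-Y, was in 22 (59.5%) against 41.1% and 42.8%. The word TTTGAA, the core of the CHR element of late cell cycle genes, was in 5 (13.5%) against 20.2% and 14.7%. The EBF1 palindrome, TCCC and GGGA with any 2 bases between them, was in 2 members, Chaf1a and Pola1 (5.41%), against 1.06% and 1.23%. A match describes letters only and is no evidence of binding.

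The 170 bases upstream of the start are shown for 5 members that carry E2F words there. Mcm5, Mcm6, Cdc6 and Gins3 were chosen from the helicase, licensing and activation genes, whose members were all lower with Ebf1-H240A. Pola1 is the 1 promoter that holds both an E2F and an EBF1 word. Mcm7 and Rfc3 also carry an E2F word there and are not shown. In Mcm3, Cdt1, Pold1, Pold3, Pole2 and Lig1 the E2F words lay only after the start. Capitals mark E2F words and, in Pola1, also the EBF1 palindrome, on either strand, and each sequence runs 5′ to 3′ on the gene's strand up to the base before the start. The windows are chr8:75109339-75109508 (plus strand) for Mcm5, chr1:128359706-128359875 (minus) for Mcm6, chr11:98907981-98908150 (plus) for Cdc6, chr8:95633389-95633558 (plus) for Gins3 and chrX:93632156-93632325 (minus) for Pola1, all in GRCm38.p6.
Mcm5: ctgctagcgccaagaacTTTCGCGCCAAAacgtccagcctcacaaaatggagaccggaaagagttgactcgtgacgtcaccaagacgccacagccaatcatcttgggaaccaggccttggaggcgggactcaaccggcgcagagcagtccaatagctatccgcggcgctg
Mcm6: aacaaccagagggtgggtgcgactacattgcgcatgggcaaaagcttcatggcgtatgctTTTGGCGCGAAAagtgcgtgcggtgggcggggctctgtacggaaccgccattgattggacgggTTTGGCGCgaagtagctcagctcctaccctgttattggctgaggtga
Cdc6: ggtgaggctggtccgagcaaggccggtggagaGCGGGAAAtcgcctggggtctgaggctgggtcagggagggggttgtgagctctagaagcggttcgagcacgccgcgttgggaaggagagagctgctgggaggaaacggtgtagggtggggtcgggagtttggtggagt
Gins3: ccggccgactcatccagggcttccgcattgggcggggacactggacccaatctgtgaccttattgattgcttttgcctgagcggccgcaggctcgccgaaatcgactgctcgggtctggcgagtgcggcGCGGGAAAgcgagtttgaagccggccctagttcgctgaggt
Pola1: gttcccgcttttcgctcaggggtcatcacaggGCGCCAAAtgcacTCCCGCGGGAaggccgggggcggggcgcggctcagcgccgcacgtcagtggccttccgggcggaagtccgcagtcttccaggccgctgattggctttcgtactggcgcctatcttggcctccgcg
In Mcm5 and in the first site of Mcm6 words on opposite strands overlap in a single block. Mcm6 has a further word nearer the start, and in Pola1 the EBF1 palindrome follows the E2F word 5 bases on. Apart from Pola1, these genes were called lower with Ebf1-H240A than with Empty.

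The helicase genes Mcm2 to Mcm7 encode the ring that unwinds DNA, and Mcm10 a factor that activates it. All 7 were lower with Ebf1-H240A than with Empty, at a median of -0.83 (log2), and 6 were lower with Ebf1wt, at a median of -0.51. Mcm5 (probe at chr8:77651350-77651410 of mm9) had a log2 signal of 11.40, 11.41 and 11.54 with Ebf1-H240A, 11.92, 11.83 and 11.83 with Ebf1wt, and 12.42 and 12.28 with Empty. The groups were ordered without overlap. Its difference from Empty was -0.90 ± 0.08 (SE of the model; 1.87-fold lower, limma adjusted p = 1.70e-04) with Ebf1-H240A and -0.50 ± 0.08 (adjusted p = 0.00290) with Ebf1wt, and Ebf1-H240A lay -0.41 ± 0.07 (adjusted p = 0.0209) from Ebf1wt. Mcm2 and Mcm3 lay as far below Empty, at -0.98 ± 0.10 and -0.95 ± 0.09 with Ebf1-H240A against Empty. Mcm6 had the smallest differences of the 7 genes, -0.41 ± 0.09 with Ebf1-H240A (adjusted p = 0.00962, but 0.0510 without Empty 1) and -0.20 ± 0.09 with Ebf1wt, which was not called.

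Origin licensing depends on ORC subunits, on CDC6 and CDT1 as helicase loaders, and on geminin (Gmnn), which binds and blocks CDT1. All 5 of these genes were lower with Ebf1-H240A than with Empty and 3 (Cdc6, Gmnn, Orc6) with Ebf1wt. Cdc6 (probe at chr11:98782573-98782632) measured 8.10, 8.03 and 8.09 with Ebf1-H240A, 8.34, 8.43 and 8.22 with Ebf1wt, and 9.03 and 8.95 with Empty. Every array with an EBF1 protein was below both Empty arrays, with differences of -0.92 ± 0.08 for Ebf1-H240A (adjusted p = 1.56e-04) and -0.66 ± 0.08 for Ebf1wt (adjusted p = 8.23e-04). The loader and its inhibitor moved in the same direction: Cdt1 differed from Empty by -1.09 ± 0.27 with Ebf1-H240A and Gmnn by -0.61 ± 0.09. The Cdt1 value rests partly on Ebf1-H240A 2, at 10.74 against 11.74 and 11.51 on the other two arrays, and its call was lost without Empty 1 and without Empty 2. Orc2 was the weakest call, at -0.21 ± 0.07 (adjusted p = 0.0465), and was lost under 13 of 16 alternatives.

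CDC45 and the GINS subunits complete the active helicase. All 4 genes were lower with Ebf1-H240A than with Empty, and Cdc45, Gins1 and Gins3 were lower with Ebf1wt. Gins3 (chr8:98168645-98168704) had 7.35, 7.39 and 7.44 with Ebf1-H240A, 7.57, 7.58 and 7.54 with Ebf1wt, and 8.11 and 8.10 with Empty. The groups were separate, and the differences from Empty were -0.71 ± 0.06 (adjusted p = 1.17e-04) with Ebf1-H240A and -0.54 ± 0.06 (adjusted p = 4.60e-04) with Ebf1wt. Gins2 (chr8:123112627-123112686) had a different pattern. It measured 8.72, 8.72 and 8.86 with Ebf1-H240A, 9.32, 9.24 and 9.00 with Ebf1wt, and 9.24 and 9.25 with Empty, so that the Ebf1wt arrays overlapped Empty and the Ebf1-H240A arrays lay below both. It differed by -0.42 ± 0.09 between Ebf1-H240A and Ebf1wt (adjusted p = 0.0464) and by -0.06 ± 0.10 between Ebf1wt and Empty (not called).

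PCNA is the sliding clamp that holds polymerases on DNA, and RFC1 to RFC5 form the complex that loads it. In both comparisons with Empty, 5 of these 6 genes were lower, and Rfc2 was not called in either (-0.17 ± 0.09 with Ebf1-H240A and -0.03 ± 0.09 with Ebf1wt). A second Rfc2 probe, well above background on all 8 arrays, gave -0.35 and -0.22. Rfc5 (chr5:117829243-117829302) had 10.73, 10.92 and 11.00 with Ebf1-H240A, 11.03, 11.05 and 11.04 with Ebf1wt, and 11.64 and 11.53 with Empty. The arrays of both EBF1 groups lay close together, well below Empty, with differences of -0.70 ± 0.09 (adjusted p = 9.47e-04) and -0.55 ± 0.09 (adjusted p = 0.00355) from it. Rfc4 (chr16:23114016-23114075) was the 1 member of this group called between the proteins. Its log2 signal was 10.40, 10.52 and 10.48 with Ebf1-H240A, 10.75, 10.72 and 10.71 with Ebf1wt, and 10.94 and 10.89 with Empty, all in separate ranges. Ebf1-H240A was -0.26 ± 0.05 from Ebf1wt (adjusted p = 0.0423) and -0.45 ± 0.06 from Empty (adjusted p = 0.00132), while Ebf1wt was -0.19 ± 0.06 from Empty (adjusted p = 0.0484). The call between the proteins and that of Ebf1wt against Empty were each lost under 13 of 16 alternatives, with adjusted p up to 0.379 and 0.32.

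Replication protein A, which coats single-stranded DNA, is encoded by Rpa1, Rpa2 and Rpa3. Rpa1 and Rpa3 were lower than Empty with either protein. Rpa3 (chr6:8206200-8206706) had 9.97, 9.97 and 10.02 with Ebf1-H240A, 10.17, 10.14 and 10.10 with Ebf1wt, and 10.36 and 10.49 with Empty. Again the ranges were separate, and the differences from Empty were -0.44 ± 0.06 with Ebf1-H240A (adjusted p = 0.00155) and -0.29 ± 0.06 with Ebf1wt (adjusted p = 0.0112). The Ebf1wt call was lost without Empty 2, and under 3 other settings (normexp, the authors' value table and no filter on dim probes), with adjusted p up to 0.185. Rpa2 overlapped between all groups, at -0.11 ± 0.11 and -0.10 ± 0.11 from Empty, and a second probe of it gave 0.01 and 0.09.

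Among the polymerase and primase genes, 8 of 9 were lower with Ebf1-H240A than with Empty, all but Pola1 (-0.50 ± 0.17, adjusted p = 0.0550), and 5 (Prim1, Prim2, Pold2, Pold3, Pole2) were lower with Ebf1wt. Pole2 (chr12:70307465-70308864), a subunit of the leading-strand polymerase epsilon, had 7.98, 7.80 and 7.85 with Ebf1-H240A, 8.40, 8.28 and 8.20 with Ebf1wt, and 8.88 and 8.94 with Empty. No array of 1 group reached the range of another. Its difference of -1.03 ± 0.09 from Empty with Ebf1-H240A (2.05-fold lower, adjusted p = 1.52e-04) compares with -0.61 ± 0.09 with Ebf1wt (adjusted p = 0.00176), and the proteins differed by -0.42 ± 0.08 (adjusted p = 0.0271). Prim2 (chr1:33510733-33510792), the large primase subunit, had 8.89, 8.92 and 8.96 with Ebf1-H240A, 9.28, 9.22 and 9.20 with Ebf1wt, and 9.52 and 9.48 with Empty. It showed the same order, at -0.58 ± 0.06 and -0.27 ± 0.06 from Empty (adjusted p = 3.59e-04 and 0.0112) and -0.31 ± 0.05 between the proteins (adjusted p = 0.0215).

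Pold1 (chr7:51788621-51788751), the catalytic subunit of polymerase delta, stood apart from its partners Pold2 and Pold3 with Ebf1wt. It had 11.49, 11.63 and 11.69 with Ebf1-H240A, 12.08, 11.99 and 12.08 with Ebf1wt, and 11.89 and 11.89 with Empty. The Ebf1-H240A arrays were all below Empty (-0.29 ± 0.07, adjusted p = 0.0199), and the Ebf1wt arrays all above it (0.16 ± 0.07, adjusted p = 0.136, not called). Between the proteins the difference was -0.45 ± 0.07 (adjusted p = 0.0145), and a second Pold1 probe gave -0.40. The call against Empty was lost without Empty 1, without Empty 2 and with no filter on dim probes, where its adjusted p reached 0.0818. Pold2 in contrast was low with both, at -0.95 ± 0.09 with Ebf1-H240A and -0.72 ± 0.09 with Ebf1wt. Pold3 differed less from Empty, at -0.24 ± 0.07 and -0.22 ± 0.07, and these calls were lost under 5 and 12 of 16 alternatives.

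FEN1 trims the flap of Okazaki fragments on the lagging strand and ligase 1 (Lig1) seals them. Both genes were lower than Empty with either protein. Lig1 (chr7:13896609-13896667) measured 11.49, 11.55 and 11.64 with Ebf1-H240A, 11.92, 11.85 and 11.84 with Ebf1wt, and 12.27 and 12.15 with Empty. These ranges did not meet, and the differences from Empty were -0.65 ± 0.07 (adjusted p = 5.36e-04) and -0.34 ± 0.07 (adjusted p = 0.0106), with -0.31 ± 0.06 between the proteins (adjusted p = 0.0399). The call between the proteins was lost under 12 of 16 alternatives.

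Ribonucleotide reductase (Rrm1, Rrm2), thymidylate synthase (Tyms), thymidine kinase (Tk1) and dUTPase (Dut) supply deoxynucleotides. With Ebf1-H240A 4 of the 5 genes were lower than Empty, and with Ebf1wt Tyms and Dut were lower and Tk1 was higher. Tyms (chr5:30387605-30387664) had 10.63, 10.61 and 10.78 with Ebf1-H240A, 10.99, 10.97 and 10.90 with Ebf1wt, and 11.49 and 11.46 with Empty, a difference from Empty of -0.80 ± 0.07 (adjusted p = 2.23e-04) and -0.53 ± 0.07 (adjusted p = 0.00175). Ribonucleotide reductase followed with Ebf1-H240A, at -0.49 ± 0.08 for Rrm1 and -0.59 ± 0.11 for Rrm2, while with Ebf1wt the values of -0.23 ± 0.08 and -0.23 ± 0.11 did not pass the test. Tk1 (chr11:117677105-117677164), which salvages thymidine, ran otherwise. It had 10.56, 10.67 and 10.76 with Ebf1-H240A, 11.01, 10.98 and 11.00 with Ebf1wt, and 10.75 and 10.73 with Empty. The Ebf1wt arrays were above all others (0.26 ± 0.07 from Empty, adjusted p = 0.0290), Ebf1-H240A overlapped Empty (-0.08 ± 0.07, not called), and the proteins differed by -0.34 ± 0.06 (adjusted p = 0.0303). The call of Tk1 as higher was lost on leaving out any 1 of the Empty or Ebf1wt arrays, and its adjusted p ranged from 0.0218 to 0.132 over 16 alternatives.

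Chromatin assembly factor 1 places histones on new DNA. Its large subunit Chaf1a (chr17:56206969-56207028) had 9.58, 9.61 and 9.75 with Ebf1-H240A, 10.05, 9.94 and 10.05 with Ebf1wt, and 10.36 and 10.35 with Empty. It was lower in both comparisons with Empty, with differences of -0.71 ± 0.08 (adjusted p = 4.36e-04) and -0.34 ± 0.08 (adjusted p = 0.0122), and the proteins differed by -0.37 ± 0.07 (adjusted p = 0.0264). The middle subunit Chaf1b (chr16:93906269-93906329) had 11.50, 11.44 and 11.58 with Ebf1-H240A, 11.69, 11.59 and 11.50 with Ebf1wt, and 11.46 and 11.26 with Empty, and was the 1 member whose mean was higher than Empty with Ebf1-H240A (0.15 ± 0.09, adjusted p = 0.243). It was not called in any comparison.

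TIMELESS and TIPIN form a complex that keeps the helicase and polymerase together at the fork. Tipin (chr9:64152311-64152370) had 11.74, 11.72 and 11.70 with Ebf1-H240A, 12.11, 12.05 and 11.97 with Ebf1wt, and 12.46 and 12.46 with Empty. Its ranges were separate, with differences from Empty of -0.74 ± 0.06 (adjusted p = 1.54e-04) and -0.41 ± 0.06 (adjusted p = 0.00234) and of -0.33 ± 0.06 between the proteins (adjusted p = 0.0208). Timeless (chr10:127681744-127681803) had 8.83, 9.07 and 9.03 with Ebf1-H240A, 9.57, 9.50 and 9.81 with Ebf1wt, and 9.89 and 9.98 with Empty. It gave the largest difference between the proteins among the members, -0.65 ± 0.10 (1.57-fold lower with Ebf1-H240A, adjusted p = 0.0177), next to -0.96 ± 0.12 (adjusted p = 7.54e-04) and -0.31 ± 0.12 (adjusted p = 0.0738, not called) from Empty. A second Timeless probe gave -0.86 between the proteins and -0.57 from Empty with Ebf1-H240A, but 0.29 with Ebf1wt.

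The 11 members lower with Ebf1-H240A than with Ebf1wt were Mcm5, Gins2, Rfc4, Prim2, Pold1, Pole2, Lig1, Tk1, Chaf1a, Timeless and Tipin, from 8 of the 10 roles. Origin licensing and single-strand binding had 0 of 5 and 0 of 3 genes called in this comparison. At an unadjusted p under 0.05 (limma), 3 and 1 of them were lower, so these roles are not set apart. All 45 members had a lower mean with Ebf1-H240A than with Ebf1wt, against 45.1% of all genes, and for 35 the arrays did not overlap, against 12.9%. The smallest differences were those of Rpa2 (-0.01 ± 0.09) and Pold3 (-0.03 ± 0.06). The means were lower with Ebf1-H240A for 45 members within slide 1 and for 41 within slide 2. Which members passed the test depended on the setting: 3 were called with the slide as a block, 18 after quantile normalization, and 0 without Ebf1wt 1, where all 11 calls were lost. Without Ebf1wt 2 there were 2 calls, without Ebf1-H240A 1, 2 or 3 there were 2, 2 and 5, without Empty 1 or 2 there were 7 each, and without Ebf1wt 3 there were 9. By gene, calls were lost under 13 (Rfc4), 12 (Lig1), 11 (Gins2), 10 (Prim2, Tk1, Tipin) and 9 (Chaf1a) of 16 alternatives. The others were lost under 8 (Mcm5, Pole2), 4 (Timeless) and 3 (Pold1).

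**Figure D2:**
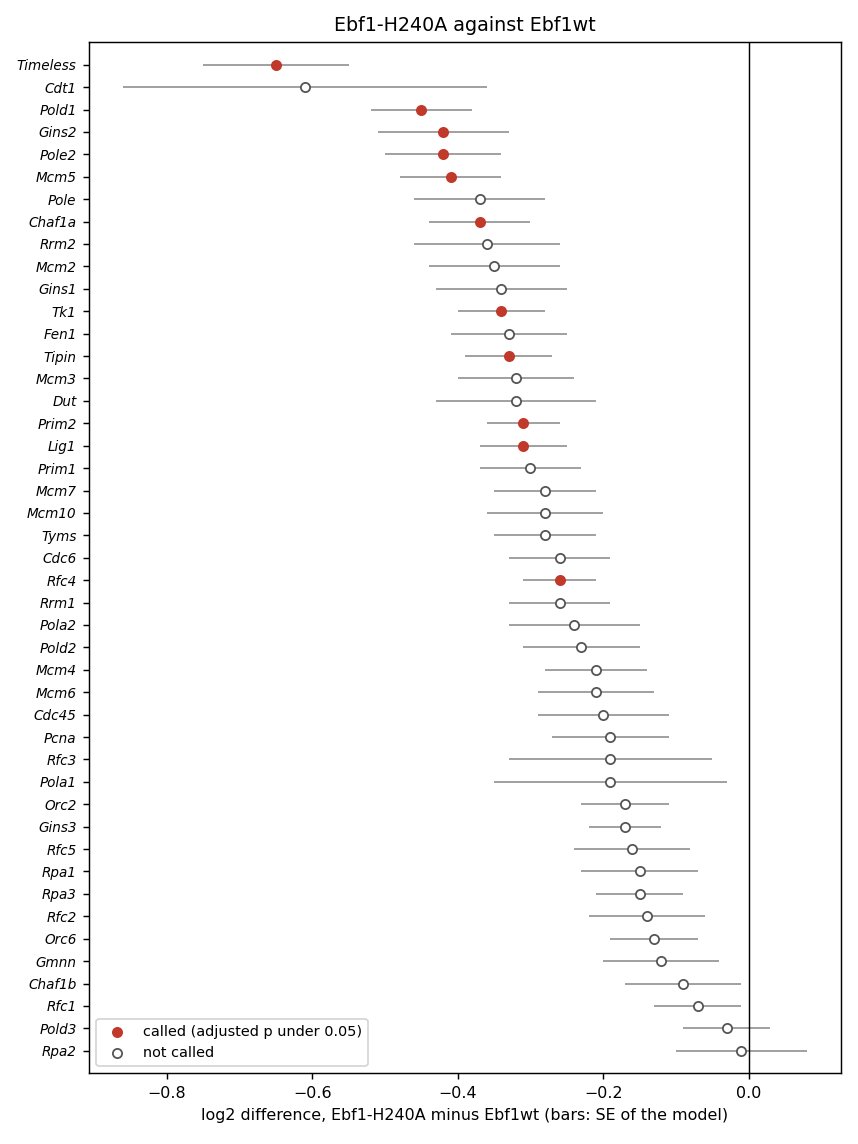
Log2 difference of Ebf1-H240A minus Ebf1wt for the 45 genes, ordered by size, with bars for the SE of the model; filled points passed the adjusted p threshold of 0.05. All 45 points lie at or below -0.01, and 11 are filled, from -0.65 (Timeless) to -0.26 (Rfc4).

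**Figure D3:**
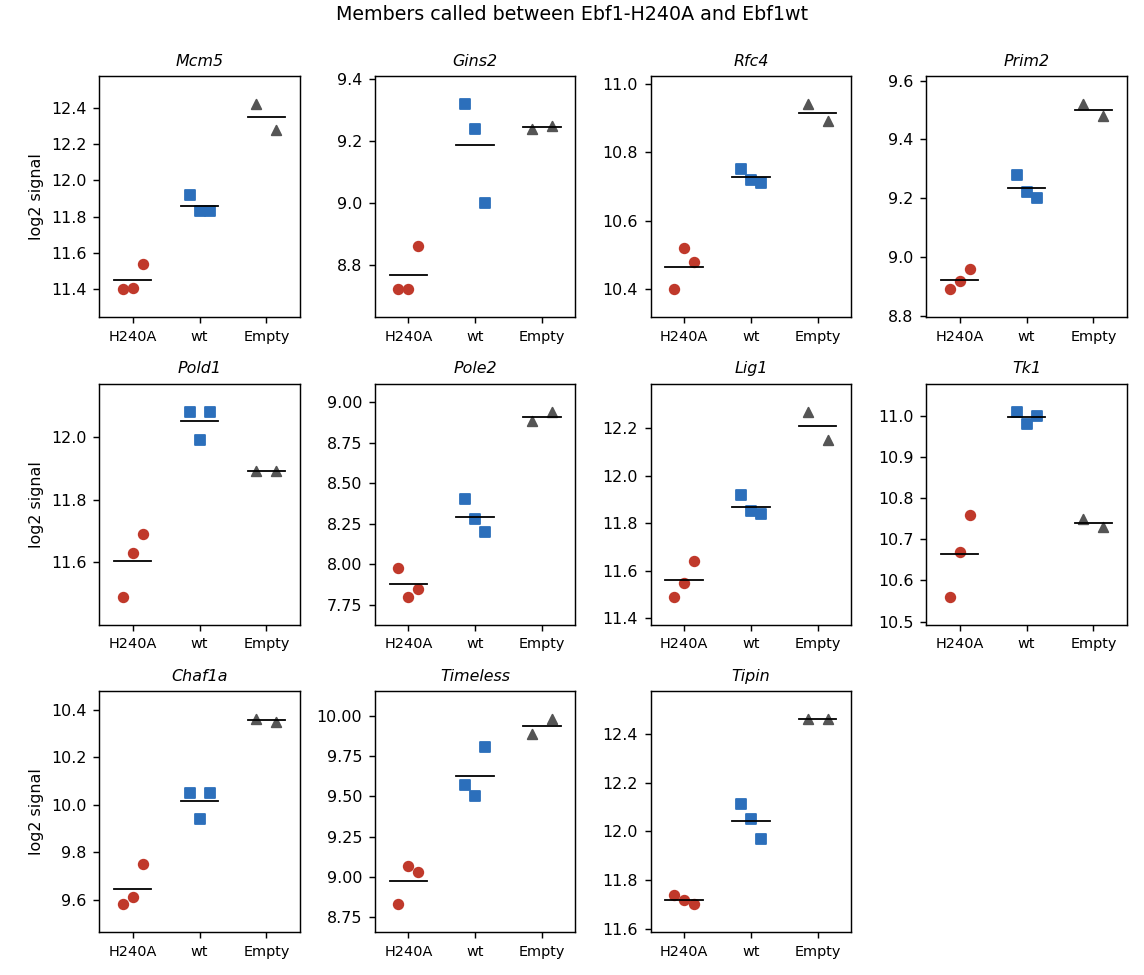
Log2 signal per array (points) and group mean (line) of the 11 genes called between Ebf1-H240A and Ebf1wt, with Ebf1-H240A (H240A), Ebf1wt (wt) and Empty from left to right and a separate axis range for each gene that does not start at 0. The Ebf1wt arrays lie between the other groups for most genes, but above both for Pold1 and Tk1.

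Different probes of a gene mostly moved together. For 15 members the array holds more than 1 probe, and 13 further probes in 11 genes passed the filter on dim signals. The sign matched that of the brightest probe for 12 of the 13 with Ebf1-H240A against Empty, for 11 with Ebf1wt against Empty and for 12 between the proteins. The probes that disagreed belonged to Rpa2, to Timeless for Ebf1wt against Empty, and to Pola2 between the proteins, where a second probe that was dim (3.65 with Ebf1-H240A and 3.05 with Ebf1wt) gave 0.60.

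Further genes of the pathway, listed by function, followed the same direction with more exceptions. Of 30 other replication factors, 21 were lower (against 23% of all genes) and 2 higher (21.6%) with Ebf1-H240A than with Empty. Their median log2 difference was -0.45. With Ebf1wt 17 were lower (against 21.3%) and 3 higher (17.2%), at a median of -0.36. Cdc7 (the kinase that fires origins), Topbp1 (which recruits CDC45) and Atad5 (which unloads PCNA) had the smallest adjusted p, at -0.86 ± 0.07, -0.80 ± 0.06 and -0.70 ± 0.06 with Ebf1-H240A. Of these 30 genes, 3 differed between the proteins, all lower with Ebf1-H240A (against 2.72% of all genes). They were Dscc1 (-0.37 ± 0.08), Mcm8 (-0.35 ± 0.07) and Uhrf1 (-0.60 ± 0.08), the last a factor that recruits the maintenance methyltransferase to new DNA.

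Of 30 other genes of nucleotide supply, 22 were lower (against 23% of all genes) and 3 higher (21.6%) with Ebf1-H240A than with Empty (median -0.57). With Ebf1wt 18 were lower (against 21.3%) and 3 higher (17.2%), at a median of -0.38. The smallest adjusted p belonged to a gene that rose, Impdh1, a form of the rate-limiting enzyme of guanine nucleotide synthesis. Its log2 signal was 11.18, 11.19 and 11.13 with Ebf1-H240A, 11.76, 11.57 and 11.58 with Ebf1wt, and 9.88 and 9.85 with Empty. The Empty arrays were by far the lowest, with differences of 1.30 ± 0.07 (adjusted p = 2.83e-05) and 1.77 ± 0.07 (adjusted p = 9.18e-06), and Ebf1-H240A was -0.47 ± 0.07 from Ebf1wt (adjusted p = 0.0117). Shmt2, which makes one-carbon units in mitochondria, and Dctd, the deoxycytidylate deaminase, were lower, with differences of -0.88 ± 0.06 and -1.01 ± 0.07 for Ebf1-H240A against Empty. Between the proteins 4 genes of this list (Impdh1, Dctd, Shmt1 and Umps) were lower with Ebf1-H240A, against 2.72% of all genes.

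The E2F and RB factors control many replication genes. Of 19 genes, 11 were lower and 4 higher with Ebf1-H240A than with Empty (median -0.36), 11 lower and 5 higher with Ebf1wt (median -0.31), and 0 differed between the proteins (2 lower and 0 higher at an unadjusted p under 0.05). Of all genes, 23% were called lower and 21.6% higher with Ebf1-H240A than with Empty, and 21.3% lower and 17.2% higher with Ebf1wt, against 21.05% and 26.32% of these factors called higher and 57.89% called lower in each. E2f2, an activator in the E2F family, was higher with both, at 12.30, 12.27 and 12.16 with Ebf1-H240A, 12.17, 12.22 and 12.22 with Ebf1wt, and 11.39 and 11.41 with Empty. Its differences from Empty were 0.84 ± 0.06 (adjusted p = 9.18e-05) and 0.80 ± 0.06 (adjusted p = 1.44e-04). Foxm1, the factor that drives mitotic genes, was lower with both, at -0.80 ± 0.09 and -0.46 ± 0.09, as was the repressor E2f6, at -0.66 ± 0.08 and -0.44 ± 0.08.

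Of 14 genes of the replication checkpoint, 11 were lower (against 23% of all genes) and 0 higher (21.6%) with Ebf1-H240A than with Empty (median -0.55). With Ebf1wt 7 were lower (against 21.3%) and 0 higher (17.2%), at a median of -0.24. Between the proteins 3 of the 14 were called, all lower with Ebf1-H240A than with Ebf1wt, against 2.72% of all genes. Chek1 and Brca1 were among them, at -0.39 ± 0.07 and -0.43 ± 0.08 (limma adjusted p = 0.0266 and 0.0249). Cdc25a, the phosphatase that opens S phase, differed from Empty by -0.79 ± 0.06 with Ebf1-H240A and -0.61 ± 0.06 with Ebf1wt. The checkpoint kinase gene Chek1 did so by -0.96 ± 0.08 and -0.57 ± 0.08, and Rad1, part of the clamp that signals damage, by -0.59 ± 0.06 and -0.44 ± 0.06. Of 22 mitotic genes, 21 were lower with Ebf1-H240A (median -0.56) and 11 with Ebf1wt (median -0.25), 0 were higher in either, and 3 (Top2a, Ccna2, Bub1b) were lower with Ebf1-H240A than with Ebf1wt. The shares of all genes in these comparisons are those given for the checkpoint genes. Over 16 alternatives the Ebf1wt count ran from 1, without Empty 1, to 13, and the Ebf1-H240A count from 15 to 21. Top2a, which untangles replicated chromosomes, differed from Empty by -0.84 ± 0.09 and -0.43 ± 0.09, and the mitotic kinases Aurka and Plk1 by -0.59 ± 0.07 and -0.61 ± 0.08 with Ebf1-H240A and -0.44 ± 0.07 and -0.39 ± 0.08 with Ebf1wt.

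**Figure D4:**
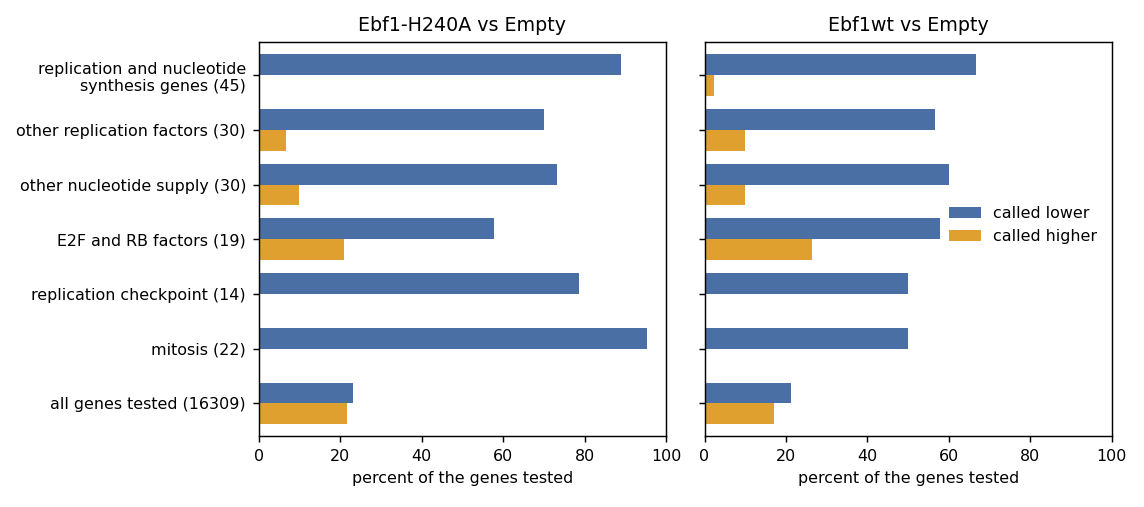
Percent of the genes tested in each list that were called lower (upper bar) or higher (lower bar) than Empty, for Ebf1-H240A on the left and Ebf1wt on the right, with the number of genes of each list in brackets. The 45 members reach 88.9% lower with Ebf1-H240A and 66.7% with Ebf1wt, against 23% and 21.3% of all genes.

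The share of probes well above background ran from 54.6% to 59.6% over the arrays, and each of the 45 members passed on all 8. Within a group, arrays had r = 0.991 to 0.995 across genes, which are not independent replicates. The brightest of 2 Ebf1 probes had a log2 signal of 10.15 to 10.44 with Ebf1-H240A, 10.17 to 10.19 with Ebf1wt and 10.10 to 10.19 with Empty. It does not separate the groups, and no label says whether it lies in the transduced sequence. It therefore gives no measure of how much of each EBF1 protein was supplied, and these amounts were not compared. Markers of other cells also differed between the groups, where many genes of any kind were called. Against Empty, 23% of all genes were called lower and 21.6% higher with Ebf1-H240A. With Ebf1wt the shares were 21.3% and 17.2%. Their summed intensities are on the linear scale, so a single bright marker can set most of a sum. Of 6 B lineage markers 5 were tested and all 5 were higher than Empty with either protein, with a summed intensity of 27840 to 31560 for Ebf1-H240A, 51490 to 57830 for Ebf1wt and 752.9 to 817.2 for Empty, and Pax5 was not well above background. Of 6 c-Kit+ progenitor markers 5 were tested (Gata2 was too dim), and 5 were lower than Empty with Ebf1-H240A and 4 lower and 1 higher with Ebf1wt, with sums of 10550 to 10840 for Ebf1-H240A, 7944 to 8724 for Ebf1wt and 21480 to 22970 for Empty. Of 12 stromal markers 10 were tested, without Pdgfra and Lum. Against Empty, 7 were higher and 0 lower with Ebf1-H240A, and 4 higher and 0 lower with Ebf1wt. The sums were 13510 to 16760 for Ebf1-H240A, 16760 to 21460 for Ebf1wt and 14200 to 14800 for Empty. They mostly reflect Thy1, by far the brightest of these markers (mean log2 13.72 with Empty), which was not called against Empty. The sums therefore do not measure the other stromal markers or the amount of feeder cells. Of 6 erythroid markers 3 were tested, and with either protein 2 were lower than Empty and 1 higher. The sums were 826.2 to 912.9 for Ebf1-H240A, 1190 to 1325 for Ebf1wt and 8272 to 9218 for Empty. They mostly reflect Hbb-bt, at -3.58 ± 0.08 with Ebf1-H240A and -3.13 ± 0.08 with Ebf1wt. The higher marker was Alas2, at 6.06 ± 0.28 and 6.95 ± 0.28 from Empty. All 6 T and innate lymphoid markers were tested, and 4 were lower and 1 higher with Ebf1-H240A and 4 lower and 0 higher with Ebf1wt, with sums of 13870 to 15460 for Ebf1-H240A, 11270 to 11850 for Ebf1wt and 17460 to 17750 for Empty. Of 6 myeloid markers 5 were tested, without Elane, and 2 were lower and 3 higher with Ebf1-H240A and 2 lower and 2 higher with Ebf1wt. The sums were 26320 to 35620 for Ebf1-H240A, 16060 to 22040 for Ebf1wt and 18110 to 22330 for Empty. They mostly reflect Lyz2, which was higher with Ebf1-H240A (0.68 ± 0.20) and not called with Ebf1wt. Of 6 mast cell and megakaryocyte markers 4 were tested, without Mcpt8 and Pf4, and 2 were lower and 2 higher with either protein, with sums of 184.6 to 230.4 for Ebf1-H240A, 201.7 to 227.7 for Ebf1wt and 264 to 282 for Empty. Of 5 hepatocyte markers, Alb, Afp, Apoa1 and Ttr were below the filter on dim probes. The fifth, Ahsg, was well above background on all 8 arrays, with a log2 signal of 5.66 ± 0.03 for Ebf1-H240A (SD, n = 3), 7.35 ± 0.16 for Ebf1wt (SD, n = 3) and 9.03 ± 0.02 for Empty (SD, n = 2). It was lower in every comparison, at -3.37 ± 0.09 for Ebf1-H240A from Empty, -1.68 ± 0.09 for Ebf1wt from Empty and -1.69 ± 0.08 for Ebf1-H240A from Ebf1wt (limma's adjusted p = 2.10e-06, 3.21e-05 and 6.09e-04). The part of these cell type differences in the lower replication genes was not tested.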

How the data were processed

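RNA of 8 samples was measured on 1-colour Agilent arrays from 0.2 ug of RNA each. Per the submitters' processing notes, Agilent Feature Extraction 10.5.1.1 produced the scanner output. The deposited scanner files hold processed spot intensity after background subtraction and spatial detrending, mean and local background intensity, and 0 or 1 flags, per the file headers, and probe positions of mm9. The deposited value table holds log2 values normalized between arrays (medians 4.90 to 4.93). Its scale was read from the values, which correlated with the scanner log2 values at r = 0.971 to 0.979 and ran in the same direction, and its centring is not stated. It served as an alternative only.

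Processed intensities were scaled to the 75th percentile of each array (231.8 to 325.9 before scaling), values under 1 were set to 1, log2 was taken, outlier spots were dropped, and spots of a probe were averaged. Such scaling makes every level relative to the rest of the RNA. Of 41174 probes, 25007 were well above background on at least 2 arrays, 24 of these lacked a value on some array and were dropped, and the brightest probe of each gene gave 16309 genes. Names were updated with RefSeq tables (27816 probes by accession, 5503 by symbol, 380 by synonym, 7475 kept). limma 3.58.1 in R 4.3.3 was fitted over all 16309 genes and 8 arrays with no covariate (5 residual and 1.80 prior degrees of freedom), and called means a Benjamini-Hochberg adjusted p under 0.05. With 2 or 3 arrays a group, the number of arrays sets the precision. The method was also run on simulated data with independent noise and few changed genes. That setting is unlike these data, so it does not test the calls reported here.

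The members, lists, motifs and alternatives were chosen with earlier results of these data known. Every array is given, in each role, for the member with the smallest adjusted p against Empty for Ebf1-H240A, for the positive difference in Chaf1b, and for members called between the proteins. Of each further list the 3 called genes with the smallest adjusted p and those called between the proteins are named, except for items not reported here. Whether replicate numbers pair the samples is not in the labels. Deviations from the group means of samples with the same number correlated between -0.332 and 0.192. With 2 or 3 arrays a group, such deviations are tied to each other (r = -1 between the 2 Empty arrays). They therefore cannot show whether the numbers pair the samples. Alternatives were quantile normalization, normexp background correction with an offset of 50, the value table, other filters, the mean over probes, the slide or the replicate number as a block, each slide alone, and each array left out in turn.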

Additional observations from a re-analysis of the deposited data

Results flagged for a closer look

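Pold1, the catalytic subunit of polymerase delta, moved apart in the groups with EBF1: all 3 Ebf1-H240A arrays lay below both Empty arrays (34% of all genes) and all 3 Ebf1wt arrays above them (26.5%). Against Empty, Ebf1-H240A was called (-0.29 ± 0.07, limma adjusted p = 0.0199), a call lost under 3 of 16 alternatives. Ebf1wt was not called against Empty (0.16 ± 0.07, limma adjusted p = 0.136). The difference between Ebf1-H240A and Ebf1wt was tested directly and was -0.45 ± 0.07 (log2, limma adjusted p = 0.0145). It kept its sign under every alternative and its call under 13 of 16, with an adjusted p of 0.00152 to 0.0648 over them, and it was lost without Ebf1wt 1, with no filter on dim probes and with the replicate number as a block.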

How the results depend on the processing

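The counts of lower members against Empty with Ebf1-H240A were 37 to 41 in all fits of more than 1 slide except when an array was left out, where they were 35 to 41, with medians of -0.71 to -0.59 and 0 higher. Within slides 1 and 2 alone, where only 1 residual degree of freedom remains, 2 and 0 members were called and the medians were -0.74 and -0.55, and normexp gave a median of -0.58. For Ebf1wt against Empty, leaving out an array gave 19 (without Empty 1) to 30 lower members, 0 to 1 higher and medians of -0.43 to -0.36. The value table gave a median of -0.30, and within the slides 0 members were called lower in either. The 1 higher member, Tk1, became 0 with normexp, the value table, no filter, the replicate block and within either slide. Between Ebf1-H240A and Ebf1wt, the 11 lower members became 18 with quantile normalization, 4 with the value table, 19 when probes had to be well above background on all arrays, 0 with no filter, 3 with the slide as a block, 0 within either slide (median -0.19 within slide 2), and 0 (without Ebf1wt 1) to 9 when an array was left out, with medians of -0.31 to -0.25. With the replicate number as a block, 38, 25 and 1 members were called lower and 0 higher in the 3 comparisons. Whether the numbers pair the samples is not known. Over the 16 alternatives other than single slides, 34 of 40, 15 of 31 and 0 of 11 calls were kept under all, and no called member changed sign under any of the 18. The cause of these changes was not tested. For the other lists, the number lower with Ebf1-H240A than with Empty ranged over those 16 from 16 to 22 (replication factors), 19 to 22 (nucleotide supply), 8 to 11 (E2F and RB), 6 to 11 (checkpoint) and 15 to 21 (mitosis), and with Ebf1wt from 7 to 19, 12 to 19, 7 to 11, 3 to 7 and 1 to 13. Between the proteins it ranged from 0 to 6, 0 to 6, 0 to 1, 0 to 4 and 0 to 5. Dropping the filter moved the median of all genes to 0.08, against -0.04, for Ebf1wt against Empty.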

Other observations

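A few genes of the same pathways were higher in the cells with EBF1, and they are named here after their values were seen. Pold4, a small subunit of polymerase delta, had a log2 signal of 10.63, 10.60 and 10.76 with Ebf1-H240A, 10.75, 10.69 and 10.55 with Ebf1wt, and 9.57 and 9.83 with Empty. It was higher than Empty with either protein, by 0.96 ± 0.10 and 0.97 ± 0.10 (limma adjusted p = 4.86e-04 and 6.04e-04). Mcm9, a helicase paralogue that acts in repair, was higher by 0.37 ± 0.12 and 0.58 ± 0.12 (adjusted p = 0.0480 and 0.0104). Tk2, the thymidine kinase of mitochondria, had 8.83, 8.72 and 8.89 with Ebf1-H240A, 8.69, 8.66 and 8.60 with Ebf1wt, and 8.20 and 8.21 with Empty, a difference of 0.61 ± 0.07 and 0.45 ± 0.07 (adjusted p = 6.07e-04 and 0.00293). Samhd1, which breaks down deoxynucleotides, was higher with Ebf1-H240A by 0.53 ± 0.10 (adjusted p = 0.00556), and its value of 0.29 ± 0.10 with Ebf1wt was not called.

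Uhrf1 and Umps resembled Tk1. Uhrf1 averaged 11.52 ± 0.08 with Ebf1-H240A and 12.11 ± 0.12 with Ebf1wt (log2, SD, n = 3 each), and was 11.75 and 11.63 with Empty. It was higher than Empty with Ebf1wt (0.43 ± 0.09, adjusted p = 0.0108) and not called with Ebf1-H240A (-0.17 ± 0.09), and the proteins differed by -0.60 ± 0.08 (adjusted p = 0.0111). Umps, which makes uridine monophosphate, was likewise higher with Ebf1wt (0.25 ± 0.06, adjusted p = 0.0126), not called with Ebf1-H240A (0.01 ± 0.06), and differed by -0.25 ± 0.05 between the proteins (adjusted p = 0.0376).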
